A study of Mus musculus with 6 samples.

Results

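Pumilio, DAZL, Musashi, CELF and ELAV proteins bind short sequence elements in the 3' untranslated regions (UTRs) of mRNAs. Described here are the transcripts of 8 such regulators, which were listed by name and found by their Ensembl identifiers: Pum2, Dazl, Msi1, Msi2, Celf1, Celf2, Elavl1 and Elavl2. They are 8 of the 53700 gene rows of the count tables, and 7 of them passed the filter on low counts. PolyA RNA was sequenced from mouse oocytes still holding their germinal vesicle (GV), the nucleus of the meiotic arrest. There were 3 wild-type libraries and 3 Zar1 knockout libraries, all on a C57BL/6N background, and each was made from 10 oocytes. The labels give no treatment, age or allele design, and do not say whether the pools came from separate animals, so p-values reflect only how much these pools varied. The series concerns the storage of oocyte mRNA in a compartment associated with mitochondria, and ZAR1 is an oocyte RNA-binding protein; the comparison asks which mRNA levels differed without Zar1.

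A growing oocyte makes and stores mRNA, then stops transcription, so that later changes in protein synthesis depend on how stored mRNAs are masked, polyadenylated, translated or destroyed. Pumilio proteins bind an element beginning with UGUA and mostly repress their targets through deadenylation, whereas DAZL, a germ cell protein, recruits poly(A)-binding proteins and promotes the translation of maternal mRNAs during meiosis. Musashi proteins bind UAG-containing elements and control the timing of maternal mRNA translation. CELF proteins bind GU-rich elements and promote decay or alter splicing, and ELAV proteins (the Hu family) bind U-rich and AU-rich elements and generally stabilise mRNAs. The assay measured the mRNAs of these regulators, not the proteins. It used polyA RNA, so here and below less mRNA and a shorter poly(A) tail cannot be told apart.

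Several of the regulator transcripts themselves hold the elements of these families, and the pumilio matches are shown first. Pumilio matches were found in 25.3% of tested coding genes, the smallest share of the families searched, with CELF close at 27.3%. Each line gives up to 30 bases of the 3' UTR of the principal coding transcript (GENCODE M21, GRCm38), written 5′ to 3′ on the RNA strand with T for U and the match in capitals. Positions count from 1 at the first base of the UTR.
Pum2, chromosome 12, position 445 of 2861: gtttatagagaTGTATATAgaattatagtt
Pum2, chromosome 12, position 698 of 2861: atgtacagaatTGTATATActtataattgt
Msi2, chromosome 11, position 227 of 803: gcttttaaacgTGTATATAatccatgattt
Elavl2, chromosome 4, position 1280 of 2477: gctttgtgtgaTGTAAATAagaccttgtgt
Elavl2, chromosome 4, position 1488 of 2477: ctaattctgtcTGTAGATAgtctagcttca
Elavl2, chromosome 4, position 2153 of 2477: aataaaatacaTGTATATAtttaaaaaaaa
Pum2, which encodes a pumilio protein, thus carries 2 matches to TGTANATA in its own 3' UTR, Elavl2 carries 3 and Msi2 1. Msi1 also has 1, and Dazl, Celf1, Celf2 and Elavl1 have no such match in the whole 3' UTR of the principal transcript. The CELF element TGTTTGT is shown for Celf1, which encodes a CELF protein and holds 3 matches in a 3' UTR of 6132 bases.
Celf1, chromosome 2, position 304: aaagtttgctgTGTTTGTaaccagtttgt
Celf1, chromosome 2, position 3350: gtattttattaTGTTTGTttctttctttg
Celf1, chromosome 2, position 3578: atgccgtgtggTGTTTGTatccttgtgaa
Dazl, which encodes the DAZL protein, has 1 match to the DAZL element (TTTGTTT or TTTCTTT), at position 705 of its 1852-base 3' UTR on chromosome 17.
Dazl, chromosome 17, position 705: ctaggtataatTTTGTTTaaagaatccaa
A match is a description of the letters and not a binding site.

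The libraries held from 32126555 to 39148833 gene counts. Zar1, the targeted gene, was at 386 CPM in wild type and 3.58 CPM in knockout oocytes (log2 fold change -6.75 ± 0.36 SE, edgeR adjusted p = 1.15e-05), with 69 to 226 counts left in each knockout library. CPM here means the counts of a gene scaled to those of all tested genes in the library, with TMM factors. In the fit over 16473 genes, 14.9% were called higher and 18.5% lower in knockout oocytes at an edgeR adjusted p of 0.05, and the median log2 fold change was 0.0075. A level says nothing of the total RNA of an oocyte, and in pooled oocytes fewer cells holding a transcript and less RNA per cell cannot be told apart. All 10 oocyte markers were detected, with a summed level of 19300 to 20600 CPM in wild type and 20600 to 22300 CPM in knockout. Of them 5 were called higher in knockout (Zp1, Zp2, Zp3, Oosp1 and Nlrp5) and 1 lower (Bmp15). Markers of granulosa and cumulus cells, the follicle cells around the oocyte, summed to 109 to 119 CPM in wild type and 131 to 137 CPM in knockout, with 11 of 14 reaching 10 counts in a library. Most of that sum was Nr5a2 and Cyp19a1. Amh and Foxl2 had 5 and 9 counts over the wild-type libraries together and 6 and 14 over the knockout libraries. Cyp11a1 had 275 counts in wild type and 329 in knockout, Gja1 200 and 283, and Hsd3b1 78 and 107. Inha had 52 and 60, Inhba 86 and 45, and Fst 73 and 43, and none of these was called. Of the 10 tested follicle cell markers 2 were higher in knockout, Nr5a2 (51.8 to 77.9 CPM, edgeR adjusted p = 0.00144) and Has2 (191 to 504 counts, 0.00712), and 1 was lower, Kitl (436 to 87 counts, 0.00222). Fshr had 13 and 47 counts and was not tested. Blood and immune markers summed to 0.0308 to 0.34 CPM in wild type and 0 to 0.356 CPM in knockout, with Cd52, Hba-a1, Hbb-bs and Itgam at 0 counts in all 6 libraries. The part of follicle cell RNA in the results below was not tested.

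Of the 8 regulator mRNAs, 5 were lower in Zar1 knockout oocytes (Pum2, Dazl, Msi2, Celf1 and Celf2), beside 18.5% of all tested genes called lower. None was higher by edgeR, also at an unadjusted p of 0.05 or with DESeq2 or limma-voom, beside 14.9% of tested genes called higher. When library trends over transcript GC content and length were entered as offsets, 3 were lower (Msi2, Celf1 and Celf2) and 1, Elavl2, was higher. Each library's trend was taken from its deviation from the mean over all libraries of both genotypes. The offsets thus also take up any genotype difference that follows GC content or length. In the fit without offsets Elavl1 and Elavl2 did not pass the test, and Msi1 had too few counts to be tested. The falls ranged from 2.02-fold for Msi2 to 1.17-fold for Dazl. In each of the 5, all 3 knockout libraries lay below all 3 wild-type libraries, which held for 25.5% of tested genes. This separation comes from the same values as the calls, here and in the gene descriptions below, and adds no further support to them.

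**Figure D1:**
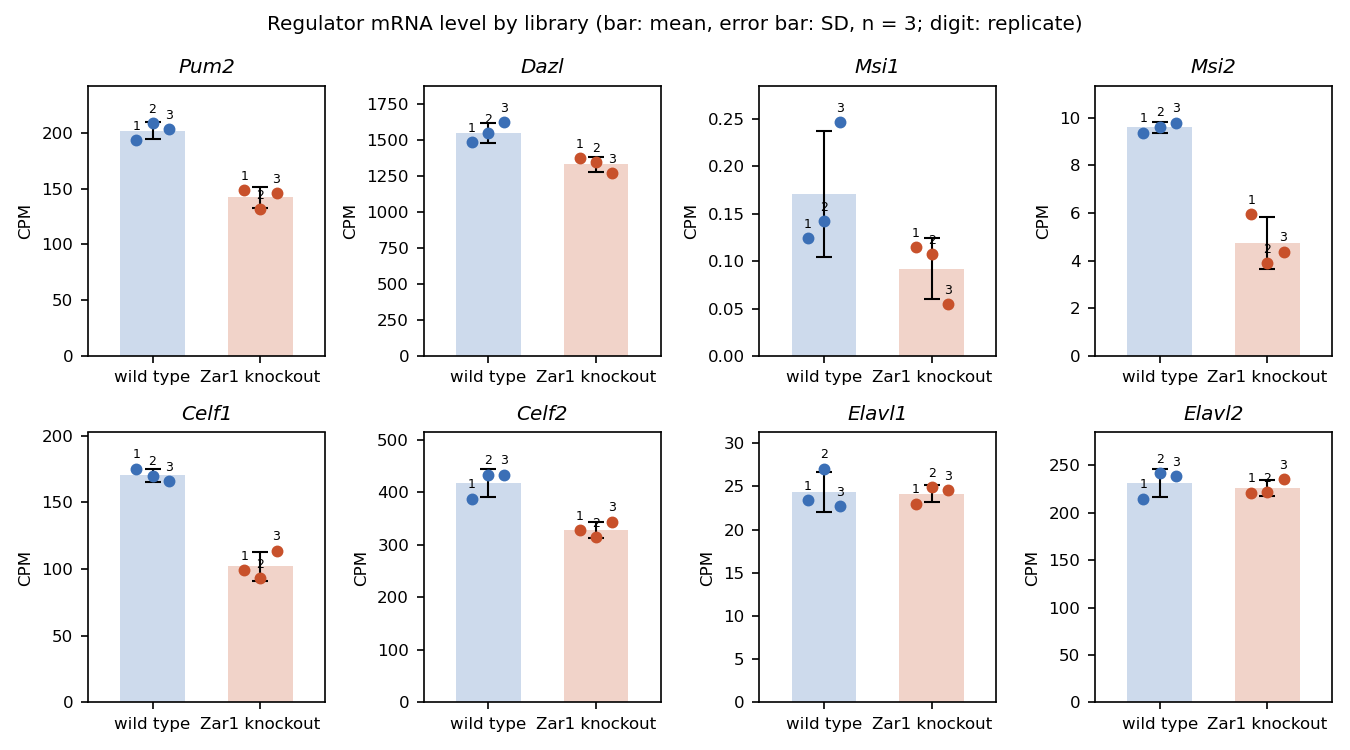
Level of each regulator in the 6 libraries, as CPM on an axis from 0 in each panel, with 1 point per library (numbered by replicate), a bar at the mean and an error bar of 1 SD (n = 3). Pum2, Dazl, Msi2, Celf1 and Celf2 show no overlap between genotypes, whereas the points of Elavl1 and Elavl2 mix.

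Pum2 encodes a pumilio repressor that binds mRNAs of the germ line and nervous system. Its level was 193, 209 and 204 CPM in wild-type replicates 1, 2 and 3 and 149, 132 and 146 CPM in knockout replicates 1, 2 and 3. The genotypes did not overlap. Pum2 fell from 202 ± 7.74 to 142 ± 9.20 CPM (SD, n = 3), a log2 fold change of -0.51 ± 0.08 SE with a 95% interval from -0.68 to -0.33 (edgeR adjusted p = 0.00129). Its call was lost with the GC and length offsets (log2 fold change -0.19, edgeR adjusted p = 0.0795).

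Pum3, a nucleolar protein of the pumilio fold with no such role in translational control, was at 79.7 ± 3.53 CPM in wild type and 75.6 ± 6.59 CPM in knockout (SD, n = 3; edgeR adjusted p = 0.561).

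Dazl was the most abundant of the regulator mRNAs and ranked 58 of all tested genes by wild-type CPM. It was at 1483, 1546 and 1624 CPM in wild-type and at 1375, 1345 and 1270.4 CPM in knockout libraries. All 3 knockout libraries lay below the lowest wild-type library. The level fell from 1551 ± 70.4 to 1330.1 ± 53.8 CPM (SD, n = 3), a log2 fold change of -0.22 ± 0.07 SE with a 95% interval from -0.37 to -0.07 (edgeR adjusted p = 0.0286). This was the least stable of the 5 calls, kept in 9 of 18 alternatives. It was lost without wild-type replicate 2 (adjusted p = 0.0697), wild-type replicate 3 (0.125), knockout replicate 1 (0.0559) or knockout replicate 2 (0.0565) in edgeR. Under upper-quartile scaling the log2 fold change was -0.17 (edgeR adjusted p = 0.0669), and with GC and length offsets it turned to 0.07 (edgeR adjusted p = 0.402).

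Boll, a relative of Dazl that acts mainly in spermatogenesis, had 33 counts over the wild-type and 31 over the knockout libraries (log2 fold change -0.09, edgeR adjusted p = 0.913). Dazl was therefore the one mRNA of its family with a sizeable level in these oocytes.

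Msi2 encodes the Musashi protein with a measurable mRNA in these oocytes. It had 377, 339 and 318 counts in wild-type and 208, 145 and 160 counts in knockout libraries. These correspond to 9.37, 9.62 and 9.80 CPM and to 5.96, 3.89 and 4.38 CPM, with no overlap, and knockout replicate 1 was the highest of its group. Msi2 fell from 9.59 ± 0.218 to 4.74 ± 1.08 CPM (SD, n = 3), a log2 fold change of -1.02 ± 0.20 SE with a 95% interval from -1.46 to -0.57 (edgeR adjusted p = 0.00438). It had the largest fold among the regulators, and a lower log2 fold change was found for 10.8% of tested genes. With GC and length offsets its log2 fold change was -0.99 (edgeR adjusted p = 0.00485).

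Msi1, the Musashi paralog best known from neural progenitors, had 5, 5 and 8 counts in wild-type and 4, 4 and 2 counts in knockout libraries. At this depth no difference was detectable, and the Msi2 to Msi1 ratio was not computed because Msi1 had under 10 counts in every library.

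Celf1 encodes a GU-element-binding protein that recruits deadenylation. It was at 175, 169.9 and 166 CPM in wild-type and at 99.0, 93.1 and 114 CPM in knockout libraries. The genotypes were far apart relative to the spread within each. Celf1 fell from 170.3 ± 4.73 to 102 ± 10.6 CPM (SD, n = 3), a log2 fold change of -0.74 ± 0.09 SE with a 95% interval from -0.94 to -0.54 (edgeR adjusted p = 0.000387). With GC and length offsets it was -0.50 (edgeR adjusted p = 0.00199).

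Celf2, a paralog known for its part in splicing as well as in mRNA stability, was more abundant. It stood at 388, 434 and 434 CPM in wild-type and at 328, 315 and 344 CPM in knockout libraries. Wild-type replicate 1 was the lowest of its group and still above every knockout library. Celf2 fell from 419 ± 26.6 to 329 ± 14.9 CPM (SD, n = 3; log2 fold change -0.35 ± 0.07 SE, 95% interval -0.52 to -0.18, edgeR adjusted p = 0.00704). With GC and length offsets it was -0.23 (edgeR adjusted p = 0.0443). In GENCODE M21 exons of Gm26565 overlap those of Celf2 on the opposite strand, and without a stated strand setting reads of such a pair cannot be told apart.

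The Celf1 to Celf2 ratio of counts, which does not depend on library scaling, was -1.15, -1.35 and -1.39 in log2 in wild type and -1.73, -1.76 and -1.60 in knockout. No values overlapped, and the difference of -0.40 had the smallest exact two-sided permutation p that 3 against 3 libraries allow (0.1, adjusted to 0.3 over 3 ratios of paralogs). Of the other CELF genes, Celf5 was at 5.23 ± 1.53 CPM in wild type and 3.77 ± 1.65 CPM in knockout (SD, n = 3; edgeR adjusted p = 0.312), and Celf3 had 65 and 48 counts over the libraries of each genotype (edgeR adjusted p = 0.506). Celf4 had 19 and 27 counts, 22 of the latter in knockout replicate 3, and Celf6 had 0 and 3, and neither was tested.

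Elavl1 encodes HuR, the widely expressed ELAV protein. Its level was 23.4, 27.0 and 22.7 CPM in wild-type and 23.0, 24.9 and 24.5 CPM in knockout libraries. The genotypes overlapped. The log2 fold change was -0.01 ± 0.12 SE, with a 95% interval from 0.827-fold to 1.19-fold (edgeR adjusted p = 0.939). With GC and length offsets it was 0.21 (edgeR adjusted p = 0.182). Annotated exons of Ccl25 overlap those of Elavl1 on the opposite strand, and Ccl25 had at most 167 counts in a library.

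Elavl2 encodes HuB, an ELAV protein of neurons and of germ cells, and its mRNA was more abundant than that of Elavl1. It was at 215, 241 and 239 CPM in wild-type and at 221, 222 and 235 CPM in knockout libraries. The genotypes overlapped, and the log2 fold change was -0.03 ± 0.07 SE with a 95% interval from 0.869-fold to 1.1-fold (edgeR adjusted p = 0.762). With GC and length offsets Elavl2 was instead called higher (log2 fold change 0.27, edgeR adjusted p = 0.0259). The Elavl1 to Elavl2 ratio differed by 0.02 in log2 (exact two-sided permutation p = 0.8, adjusted to 0.8 over 3 ratios). Elavl3, a neuronal paralog, was at 53.2 ± 2.73 and 55.8 ± 4.47 CPM (SD, n = 3; edgeR adjusted p = 0.621), and Elavl4 had 10 and 5 counts and was not tested.

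**Figure D2:**
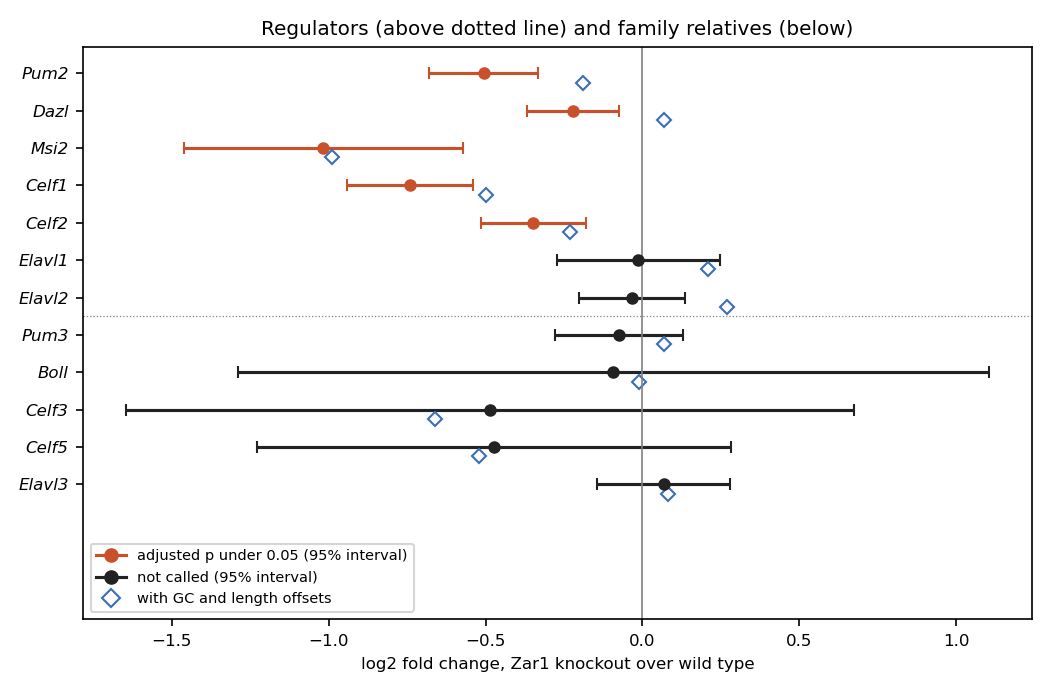
Log2 fold change (knockout against wild type) of the regulators and of tested relatives, with the 95% interval from the edgeR fit; red marks an adjusted p under 0.05 and open diamonds the fit with GC and length offsets. Without the offsets Pum2, Dazl, Msi2, Celf1 and Celf2 lie below 0, and the intervals of Elavl1, Elavl2 and Elavl3 include 0.

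**Figure D3:**
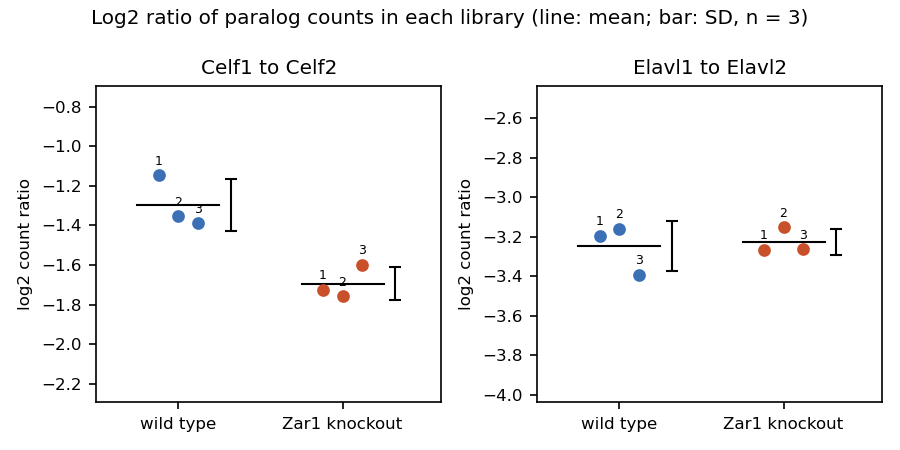
Log2 ratio of the counts of paralogs in each library, with a line at the mean of each genotype and an error bar of 1 SD (n = 3). The Celf1 to Celf2 ratio is lower in all 3 knockout libraries than in any wild-type library, and the Elavl1 to Elavl2 ratio overlaps between genotypes.

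The levels of the regulators spread widely. Per kilobase of the principal transcript, the wild-type order was Dazl at 521 ± 23.7 CPM per kb, Celf2 at 179 ± 11.4, Elavl2 at 60.3 ± 3.85, Pum2 at 32.4 ± 1.24, Celf1 at 21.8 ± 0.606, Msi2 at 5.17 ± 0.117, Elavl1 at 4.25 ± 0.404 and Msi1 at 0.0545 ± 0.0211 (SD, n = 3). No neighbours in this order overlapped between libraries. With the longest coding transcript in place of the principal one, Celf2 (47.3) fell below Elavl2 (55.2) and Msi2 (1.49) below Elavl1 (4.25), so these positions depend on the transcript chosen. In knockout oocytes Msi2 was at 2.56 CPM per kb, below Elavl1 at 4.21. The 8 transcripts together made up 0.264 ± 0.00845% of gene counts in wild type and 0.213 ± 0.00541% in knockout (SD, n = 3). Dazl alone gave 59.5% of these counts in wild type and 61.6% in knockout.

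Transcript GC content moved with the differences over all genes, and every tested regulator lay below the median of tested coding genes (49.7%). Among 12745 tested coding genes, 29.4% of those under 46.7% GC were called lower and 10.8% of those over 52.7%. Dazl at 37.0% and Elavl2 at 38.4% GC were lower in GC than nearly all coding genes, with only 0.934% and 2.13% of them below, and Pum2 was at 41.6%. Celf1, Elavl1 and Celf2 lay between 45.6% and 46.2%, so all tested regulators but Msi2 (49.1%) fell in the class under 46.7%. Msi1, which was not tested, was at 57.9%. The part of GC content in the falls was not tested beyond the offsets given beside each gene.

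The 3' UTRs of the regulators were longer than the median coding gene's in 6 of 8 cases, Celf2 and Msi2 being the exceptions. Celf1 had 6132 bases, longer than all but 1.95% of them, and Elavl1 had 4218. The longest coding transcripts of Msi2 and Celf2, used as an alternative chosen after the data were seen, have 3' UTRs of 5310 and 7381 bases. On that transcript Msi2 holds 3 pumilio matches in place of 1, and Celf2 still holds 0. On the principal transcripts, motif matches on the transcript strand, overlaps counted, reached 26 for the DAZL element and 34 for the ELAV element (TTTTTTT or ATTTA) in Elavl1. Celf1 had 19 DAZL, 10 Musashi (GTAGT or ATAGT), 3 CELF and 21 ELAV matches. Pum2 had 9 Musashi and 17 ELAV matches. Whether the matches bear on the regulators' differences was not tested.

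Over all tested coding genes, 25.3% held a pumilio match, 52.2% a DAZL, 63.0% a Musashi, 27.3% a CELF and 73.2% an ELAV match in the 3' UTR. Genes with a pumilio match were called lower in 27.8% of cases and genes without one in 17.9%, beside 20.4% of all coding genes. The same shares were 25.5% and 14.9% for DAZL, 25% and 12.6% for Musashi, 28.0% and 17.6% for CELF, and 23.6% and 11.9% for ELAV. Longer 3' UTRs hold more matches and were also lower more often, at 12.4% of genes with under 559 bases, 19.5% of the middle class and 29.4% of genes with over 1622 bases, classes of near-equal size. Within the longest class the shares with and without a match were 32.4% and 26.8% for pumilio, 30.6% and 22.7% for DAZL, 29.9% and 21.3% for Musashi, 32% and 26.5% for CELF, and 29.7% and 16.7% for ELAV, the last over 102 genes without a match. Genes with 1, 2 and 3 or more pumilio matches were lower in 26.4%, 29.5% and 34.0% of cases, with median UTR lengths of 1789, 2394 and 3885 bases. Genes with a match were also lower more often within each GC class, for pumilio in 33.8% and 26.7% of genes under 46.7% GC, 26.9% and 19.2% of the middle class and 12.7% and 10.5% of genes over 52.7% GC. In that highest class the shares were 14.7% and 9.07% for DAZL, 13.9% and 8.65% for Musashi, 13.3% and 10.4% for CELF, and 13.1% and 8.25% for ELAV. These shares are descriptions without a test, and within a GC class genes with a match still had the longer 3' UTRs. Within the longest class, too, genes with a match had longer 3' UTRs and lower GC for each family. For pumilio the medians with and without a match were 3082 and 2453 bases and 45.5% and 48.4% GC. For ELAV they were 2735 and 2104 bases and 46.8% and 54.2% GC.

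**Figure D4:**
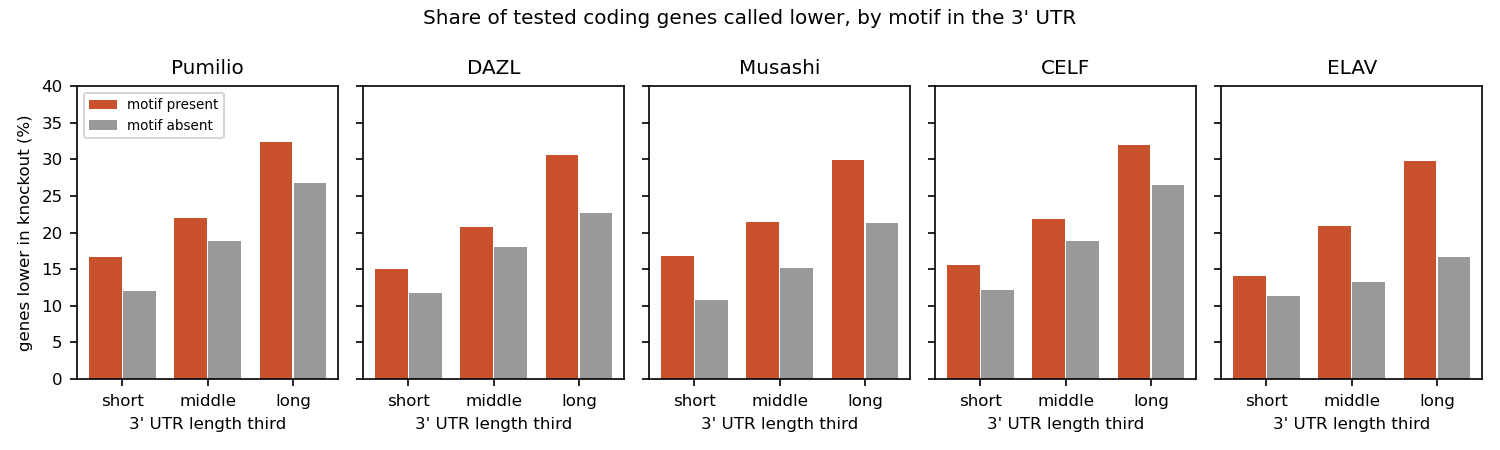
Percent of tested coding genes called lower in knockout oocytes, with (red) and without (grey) a match to each family's motif, in the short, middle and long classes of 3' UTR length. The share is higher with a match than without in each class and family shown, and higher in the long class than in the short one. Within each class genes with a match also had the longer median 3' UTR and the lower median GC content.

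Of 9 listed genes whose proteins work with pumilio or DAZL, 8 were tested, and 2 of their mRNAs rose and 1 fell, with a median log2 fold change of 0.11. Over all tested genes 14.9% rose and 18.5% fell, and counts this small do not set the partners apart. Pabpc1, the cytoplasmic poly(A)-binding protein, rose from 31.0 ± 8.83 to 157 ± 12.9 CPM (SD, n = 3; log2 fold change 2.34 ± 0.18 SE, edgeR adjusted p = 4.5e-05). Nanos1, a pumilio cofactor of germ cells, fell from 51.1 ± 2.7 to 20.1 ± 2.28 CPM (SD, n = 3; log2 fold change -1.35 ± 0.11 SE, edgeR adjusted p = 6.78e-05). Pabpc1l, the poly(A)-binding protein of oocytes, rose from 188 ± 6.39 to 227 ± 19.8 CPM (SD, n = 3; edgeR adjusted p = 0.0306), a call kept in 9 of 18 alternatives.

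Among 32 other 3' UTR-binding regulators, all tested, 6 rose and 8 fell, beside 14.9% and 18.5% of all tested genes. Their median log2 fold change was 0.02, beside 0.0075 over all genes. Rbms3 fell most, from a wild-type total of 260 counts to a knockout total of 8 (log2 fold change -4.96 ± 0.48 SE, edgeR adjusted p = 0.000131). Samd4, which encodes a Smaug repressor, fell from 14.2 ± 2.13 to 5.68 ± 0.588 CPM (SD, n = 3; edgeR adjusted p = 0.000592). Its paralog Samd4b, named after its values were seen, rose from 22.8 to 32.6 CPM (log2 fold change 0.52, edgeR adjusted p = 0.0132). Rc3h1, encoding the decay factor Roquin-1, fell from 48.5 ± 5.73 to 23.8 ± 3.87 CPM (SD, n = 3; edgeR adjusted p = 0.000838). Lin28a, encoding an RNA-binding protein of early germ and stem cells, fell from 81.9 ± 2.68 to 52.0 ± 6.64 CPM (SD, n = 3; edgeR adjusted p = 0.00175).

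Of 19 listed textbook targets of the 5 families 16 were tested, 5 rose and 3 fell, with a median log2 fold change of -0.01. The shares over all tested genes were 14.9% higher and 18.5% lower. Tex19.1, a germ cell gene among the known DAZL targets, fell from 72.2, 65.3 and 66.3 CPM in wild-type libraries to 12.6, 13.9 and 9.19 CPM in knockout libraries (log2 fold change -2.51 ± 0.15 SE, edgeR adjusted p = 2.06e-05). Among the other listed DAZL targets, Sycp3 rose, and Tpx2 (log2 fold change -0.10, edgeR adjusted p = 0.453) and Ddx4 (0.08, 0.743) were not called. Cdkn1b, encoding a cell cycle inhibitor, fell by 0.58 on the log2 scale (edgeR adjusted p = 0.0207). Fos fell from 145 to 31 counts over the libraries of each genotype (edgeR adjusted p = 0.016). Leaving out wild-type replicate 2 (0.0531), wild-type replicate 3 (0.0513) or knockout replicate 1 (0.0501) ended that call. The risers were Cdkn1a (20 to 171 counts; log2 fold change 3.07 ± 0.61 SE, edgeR adjusted p = 0.00493), Sycp3 (1.28, 0.0334), Junb (1.24, 0.0273), Trp53 (0.52, 0.0205) and Ccna2 (0.28 ± 0.07 SE, 0.0118). The Ccna2 call was lost without wild-type replicate 1 (edgeR adjusted p = 0.0607). Cdkn1b, Sycp3, Junb and Trp53 were named after their values were seen, to account for the counts. Tpx2 and Ddx4 were also named after their values were seen.

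Over the 6 libraries genes whose log2 CPM was among the most like that of each fallen regulator were found within a set of 3599 genes of at least 50 CPM. They included Taf7 (r = 0.998) and Blcap (0.997) for Pum2, Smarca2 and Btaf1 (both 0.983) for Dazl, Rcn2 (0.995) and Papolg (0.993) for Msi2, Kctd5 (0.997) for Celf1, and Ubxn7 and Sf3a1 (both 0.995) for Celf2. These genes share the 6 libraries and the genotype difference with the regulators, and all 9 were lower in knockout oocytes, from -0.27 for Sf3a1 to -1.004 for Taf7 in log2.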

How the data were processed

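Each library was made from the polyA RNA of 10 GV oocytes with a single-cell QIAseq FX kit, per the labels' protocols. What the authors deposited are raw counts of reads by gene in a separate table for every library. The submitters' processing notes name cutadapt 2.8, bcl2fastq 2.20.0.422, HTSeq 0.13.5 and STAR 2.7.8a, and build mm39. The sources used here give neither the annotation release nor the strand setting. The 5 summary rows of each table were left out of library sizes and tests.

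Counts were fitted with edgeR 4.0.16 in R 4.3.3 (TMM, filterByExpr, glmQLFit and glmQLFTest, genotype only, two-sided, Benjamini-Hochberg over 16473 genes, adjusted p of 0.05; common biological coefficient of variation 0.212). SE is the absolute log2 fold change over the square root of F. The steps were also run on simulated counts with known changes and the same dispersion for every gene, a simpler setting than these libraries. Pairs of libraries of one genotype differed beyond sampling noise, so none was a copy of another or the same library sequenced again. This comparison cannot tell whether libraries came from the same animals. Paralog ratios were compared with exact permutation tests over libraries. Lengths, GC content and 3' UTRs came from GENCODE M21 (GRCm38), so no coordinates are printed.

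All 8 regulators were named in full, relatives with at least 10 counts in a library, and up to 4 called genes of each other list by smallest adjusted p. The rule also took the 2 genes most alike each fallen regulator over the libraries. Some results under these rules, 1 of 3 paralog ratios among them, are not reported here. The members and lists were chosen with earlier results of these data known. Alternatives were other scalings, filters, tools (DESeq2 1.42.0, limma-voom in limma 3.58.1) and thresholds, a replicate block, no mitochondrial genes, GC and length offsets, and leaving out each library. The longest coding transcript was tried after the data were seen.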

Additional observations from a re-analysis of the deposited data

How the results depend on the processing

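Of the 5 falls, those of Msi2, Celf1 and Celf2 kept their call in 17 of 18 alternatives each, Pum2 in 16 and Dazl in 9. With GC and length offsets 3 regulators were lower (Msi2, Celf1, Celf2) and 1 higher (Elavl2), and Dazl reversed to 0.07; the cause was not tested. Against a 1.5-fold change 0 regulators passed in edgeR (2 at an unadjusted p of 0.05, Msi2 and Celf1), while 417 of all genes were higher and 1067 lower. At an adjusted p of 0.01 all-gene counts were 1171 higher and 1861 lower. Leaving out each library gave 4 to 5 regulators lower and 1541 to 2509 of all genes higher and 2285 to 3125 lower. The Celf1 to Celf2 ratio difference ranged from -0.445 to -0.323 over the same leave-outs.

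Replicate numbers gave no sign of pairing the samples: same-numbered libraries had correlations of -0.009, -0.042 and -0.025 in their deviations. With so few libraries these values cannot exclude a pairing of small effect. With the replicate block, 4 regulators were lower, with 2078 genes higher and 2760 lower overall. Depth limits Msi1, which had at most 8 counts in a library.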
